A study of Homo sapiens with 4 samples.

Results

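The replication-dependent histone genes were followed in ribosome footprints of PANC-1, a cell line established from a human pancreatic ductal carcinoma. They were chosen by symbol: the linker genes H1-1 to H1-5 and every numbered H2AC, H2BC, H3C and H4C gene of the deposited table. This rule found 68 of 20307 listed genes, namely 5 linker, 17 H2A, 18 H2B, 13 H3 and 15 H4 genes. The rule uses symbols and no measured value, but the group was picked for description with earlier results of these data known. In the series, 2 libraries came from PANC-1 cells depleted of FBXO32, an F-box protein that picks the substrates of an SCF ubiquitin ligase, and 2 from negative control PANC-1 cells. By the labels, every library had cycloheximide at 100 µg/mL for 2 min and a digestion of 45 min. How FBXO32 was depleted, and whether the depleted cells were 1 clone, is not given in the sources used here. Each gene has 1 TPM value per library, a length-scaled share of that library's footprints that keeps no read depth, so no counting interval can be given. A footprint level depends on both the amount of an mRNA and its translation, and in bulk cells fewer dividing cells and less histone mRNA per dividing cell cannot be told apart.

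Histone proteins package DNA into nucleosomes. A pair each of H2A, H2B, H3 and H4 forms the nucleosome core, and an H1 linker histone binds where DNA enters and leaves it. Replication-dependent histone genes are expressed in S phase, when new DNA must be packaged, and occur as clusters of near-identical copies mostly without introns. Their mRNAs normally end in a stem-loop bound by SLBP in place of a poly(A) tail. Some members have spliced coding transcripts in GENCODE 29, with up to 2 exons in H2BC4 and H2BC5, 4 in H2BC6 and 3 in H2BC15. In 31 of the 68 members a GENCODE 29 coding transcript on GRCh38 held the histone stem-loop, searched on the sense strand as a stem of GGNNCT, a loop of TNTN and a closing stem of AGNNCC, after the stop codon, against 0.363% of all 20371 coding genes in that annotation. Of the 37 members without a match, 34 have annotated transcripts that run on for fewer than 25 nt past the stop codon, so the motif could not lie in them. The stem-loops of 4 members are shown with the loop in capitals, since they mark the class and show the 2 stem forms, one of them in all 8 H4 genes with a match.
H2BC5: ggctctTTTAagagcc
H2BC6: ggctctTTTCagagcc
H3C6: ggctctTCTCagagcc
H4C14: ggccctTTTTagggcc
H2BC5 and H2BC6 differ in the last loop letter, and H4C14 carries the stem form of the H4 genes.

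A few values of the whole series bear on what follows. FBXO32 had 14.3 and 12.9 TPM in the depleted libraries, against 18.1 and 21.6 TPM in the controls, a difference short of the threshold (limma adjusted p = 0.429), and the depletion rests on the labels and column names. The pancreatic line was checked by 10 marker genes, epithelial ones and others such as VIM and CD44. Their summed level was 4149 and 2246 TPM in the depleted libraries and 6495 and 5665 TPM in the controls. KRT8, KRT18, VIM and CD44 passed the test downward. The other 6 did not pass the test. Of these, KRT7, EPCAM, CDH1 and MUC1 were higher in both depleted libraries, with log2 fold changes of 0.87, 1.10, 0.85 and 1.15. Their levels were low: the highest, EPCAM, had 7.68 and 6.09 TPM in the depleted libraries against 1.87 and 3.64 TPM in the controls. Of 12 markers of other cells, CD3E, GCG, INS, PRSS1 and PTPRC were listed at 0 in every library, and 2 collagen genes reached the test. COL1A1 fell, with 35.3 and 39.0 TPM in the depleted libraries against 111 and 86.5 TPM in the controls (limma adjusted p = 0.00578). COL3A1 rose, with 35.2 and 30.9 TPM in the depleted libraries against 13.0 and 14.2 TPM in the controls (limma adjusted p = 0.0280). The part of these markers in the histone results was not tested. Across all 11623 tested genes, 2268 fell and 722 rose, and these numbers dropped to 347 and 37 when negative control replicate 1 was left out. Short genes stood apart: 1728 tested genes that are no members but have coding lengths in the members' range of 294 to 678 nt had a median log2 fold change of 0.47, against -0.16 over all tested genes. The part of coding length in the results below was not tested.

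Together the members took 1.60% and 1.69% of the TPM in the depleted libraries and 1.77% and 2.09% in the controls. Of the 68, 59 had 1 TPM or more in 2 or more libraries and entered the test, 7 were detected below that, and 2 (H2AC1 and H4C7) were listed at 0 throughout. The 9 untested members never exceeded 1.43 TPM. Among the 59, 7 fell, 0 rose and 52 did not pass the test (limma on log2(TPM + 1), Benjamini-Hochberg adjusted p under 0.05 over all tested genes). That is 11.9% of the tested members that fell, below the 19.5% of all tested genes that fell, while 6.21% of all tested genes rose and 25.7% changed in either direction. Among the non-member genes of like coding length 5.32% fell and 16.4% rose. The order of members and all tested genes turned with the trend on coding length removed, where 35.6% and 11.6% fell. The 7 that fell were H2BC5, H2BC6, H2BC7, H2BC15 and H2BC26, which encode H2B, and H1-4 and H1-5, which encode linker histones. No H2A, H3 or H4 gene passed the test in either direction, although 5 H2A, 2 H3 and 1 H4 genes did so downward once the trend on coding length was removed. Without negative control replicate 1, 3 of the 7 still fell: H2BC5, H2BC6 and H2BC26. A further pair of H2B genes, H2BC21 and H2BC8, lay just outside the threshold (limma adjusted p = 0.0529 and 0.0542). H2BC21 had 6.01 and 6.33 TPM in the depleted libraries, against 9.79 and 22.2 TPM in the controls, and H2BC8 had 227 and 245 TPM against 467 and 429.9 TPM in the controls.

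**Figure D1:**
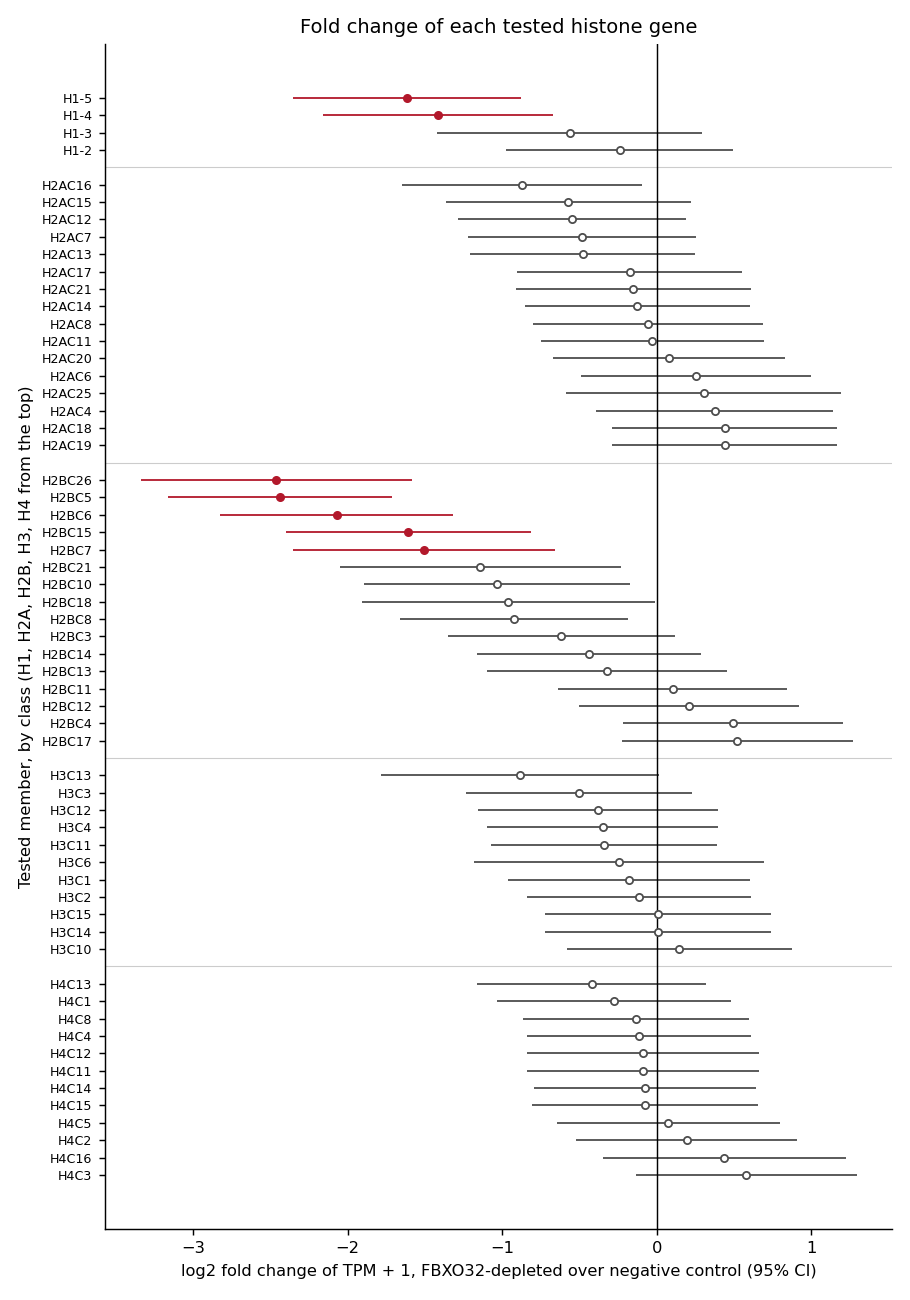
Log2 fold change of TPM + 1 (horizontal axis, FBXO32-depleted over negative control) with its 95% confidence interval from limma for the 59 tested members, grouped by class from H1 at the top to H4 at the bottom. Filled red points are the 7 members that fell; open points did not pass the test, and all 12 H4 intervals include 0.

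By class, the summed level was lower in the depleted libraries for H1 and H2B without overlap, and overlapped for H2A, H3 and H4. The H1 genes summed to 842 and 610.4 TPM in the depleted libraries, against 1598 and 1363 TPM in the controls. The mean of these sums was 726 ± 164 TPM after depletion and 1480.3 ± 166 TPM in controls (SD, n = 2 each), a log2 ratio of -1.03. Linker histone footprints were thus at 0.49 times the control level. The H2B genes summed to 3399 and 3808 TPM in the depleted libraries, against 5228 and 5034 TPM in the controls, a log2 ratio of -0.51. No test of the sums was run, since an exact permutation test of 2 libraries against 2 cannot fall below 1 in 3, and they are given as a description.

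The other core classes were close between groups and differed more between the controls than between the groups. H2A genes summed to 4459 and 4677 TPM in the depleted libraries and to 4344 and 5278 TPM in the controls. H3 genes summed to 2834 and 2780.1 TPM in the depleted libraries and to 2656 and 3698 TPM in the controls. H4 genes summed to 4449.7 and 5069 TPM after depletion and to 3867 and 5483 TPM in the controls. In each of these classes both depleted sums lay between the control sums, in which negative control replicate 2 was the higher. Relative to the mean of the 4 core classes, H1 stood at 22.2% and 14.9% in the depleted libraries, against 39.7% and 27.96% in the controls, so the linker share did not overlap between groups.

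**Figure D2:**
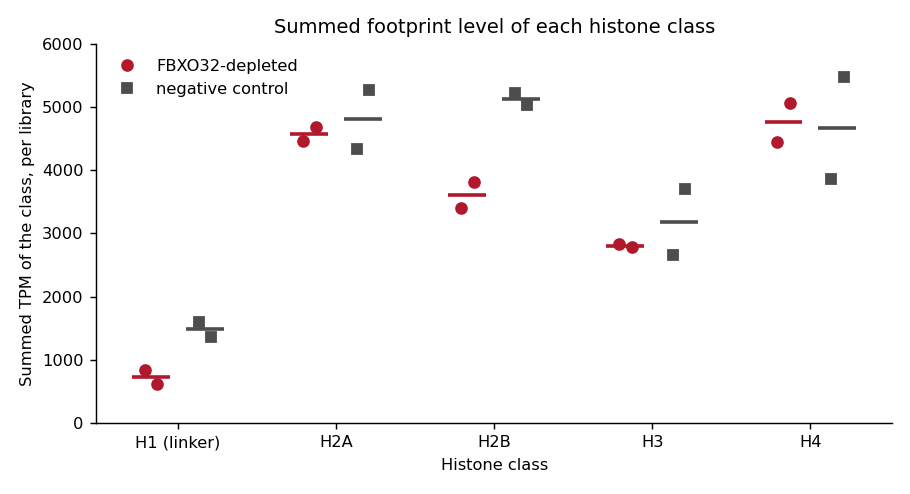
Summed TPM of each histone class (vertical axis) in each library, with FBXO32-depleted libraries as red circles left of negative control libraries as grey squares; lines mark the means of 2 libraries. The groups are apart for H1 (842 and 610.4 against 1598 and 1363 TPM) and H2B, and overlap for H2A, H3 and H4.

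Among the linker genes, H1-5 and H1-4 fell and H1-2 stayed within the control range in 1 of the 2 depleted libraries. H1 subtypes differ mainly in their tails and are known to be partly redundant in compacting chromatin. H1-5 (ENSG00000184357, chromosome 6, 27866792 to 27867588, minus strand, RefSeq positions on GRCh38.p14) had 226 and 165 TPM in the depleted libraries, against 693 and 508 TPM in the controls. Its log2 fold change was -1.62 ± 0.38 (SE, limma adjusted p = 0.000229), leaving 32.5% of the control mean. H1-4 (ENSG00000168298, chromosome 6, 26156329 to 26157115, plus strand) had 191 and 146 TPM in the depleted libraries, against 509 and 392 TPM in the controls. Both depleted values of each gene lay well below both control values. The fold change of H1-4 was -1.42 ± 0.38 (SE, limma adjusted p = 0.00176).

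H1-2 had 404 and 279.7 TPM in the depleted libraries, against 369 and 427 TPM in the controls. These values overlapped, and the log2 fold change of -0.24 had a 95% confidence interval from -0.97 to 0.50. H1-3 was lower in both depleted libraries, with 21.3 and 20.3 TPM against 27.0 and 36.0 TPM in the controls, with a limma adjusted p of 0.357. H1-1 was listed at 0.214 TPM in 1 depleted library and at 0 in the others. H1-2 held 48.0% and 45.8% of the H1 sum in the depleted libraries, against 23.1% and 31.3% in the controls. The share of H1-5 was 26.8% and 27.0% in the depleted libraries, against 43.4% and 37.3% in the controls. Whether H1-2 differed from H1-4 and H1-5 in its response was not tested. Leaving out negative control replicate 1 ended the calls of H1-5 and H1-4 (limma adjusted p = 0.119 and 0.171), and that of H1-4 also without depleted replicate 2 (0.0526).

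H2B was the core class in which members moved furthest, and they moved unevenly. Of its 16 tested genes 5 fell, or 31.2%, where 19.5% of all tested genes fell. The log2 fold changes ran from -2.46 for H2BC26 to 0.52 for H2BC17, with a median of -0.94. H2BC5 (ENSG00000158373, chromosome 6, 26158121 to 26171349, plus strand) was the most abundant of all 68 members in both controls. It had 189 and 239 TPM in the depleted libraries, against 1388 and 966 TPM in the controls. That is 18.2% of the control mean, with a log2 fold change of -2.44 ± 0.37 (SE, limma adjusted p = 3.51e-09). In the depleted libraries H2BC4 was the most abundant member in its place, and H2BC5 made up 5.57% and 6.28% of the H2B sum, against 26.5% and 19.2% in the controls.

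H2BC6 (ENSG00000274290, chromosome 6, 26183761 to 26184230, plus strand) had 81.7 and 92.3 TPM in the depleted libraries, against 413 and 328 TPM in the controls. Its log2 fold change was -2.07 ± 0.38 (SE, limma adjusted p = 2.16e-06). H2BC26 (ENSG00000196890), the H2B gene of the small cluster on chromosome 1 (228458103 to 228458558, plus strand), had 6.89 and 8.73 TPM in the depleted libraries, against 54.2 and 41.2 TPM in the controls. It had the largest fall of the 59, to 16.4% of the control mean (log2 fold change -2.46 ± 0.45, SE, limma adjusted p = 1.14e-06). In these genes, as in H2BC5, the groups were separated by a gap wider than the spread within either group.

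H2BC15 (ENSG00000233822, chromosome 6, 27838569 to 27839110, plus strand) had 36.9 and 44.5 TPM in the depleted libraries, against 125 and 126 TPM in the controls (log2 fold change -1.61 ± 0.40, SE, limma adjusted p = 0.000755). H2BC7 (ENSG00000277224, chromosome 6, 26199516 to 26199988, plus strand) had 18.5 and 16.5 TPM in the depleted libraries, against 48.5 and 54.6 TPM in the controls (-1.51 ± 0.43, SE, limma adjusted p = 0.00411). Leaving out negative control replicate 1 ended both calls (limma adjusted p = 0.0932 and 0.121), and that of H2BC7 also without negative control replicate 2 (0.0870), while the log2 fold changes of both lay between -1.42 and -1.74 whichever library was left out. The calls of H2BC5, H2BC6 and H2BC26 held whichever library was left out.

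Other abundant H2B genes lay on the other side of 0. H2BC4 had 816 and 947 TPM in the depleted libraries, against 593 and 654 TPM in the controls. H2BC12 had 677 and 763 TPM in the depleted libraries, against 581 and 665 TPM in the controls, and H2BC17 had 238 and 287 TPM against 154 and 215 TPM in the controls. All 3 were higher in both depleted libraries without overlap, but none passed the test (limma adjusted p = 0.322, 0.716 and 0.321), and their log2 fold changes turned below 0 with the trend on coding length removed (-0.049 for H2BC4 and -0.34 for H2BC12). The remaining 8 tested H2B genes had log2 fold changes from -1.14 to 0.10, all of them lower in both depleted libraries except H2BC11. Without the 5 genes that fell, the H2B sum was 3065 and 3407 TPM in the depleted libraries, against 3200.1 and 3518 TPM in the controls, and the groups overlapped. Since those 5 were left out because they fell, this is a description of where the difference in the sum lies, and 7 of the 11 other tested H2B genes were lower in both depleted libraries.

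**Figure D3:**
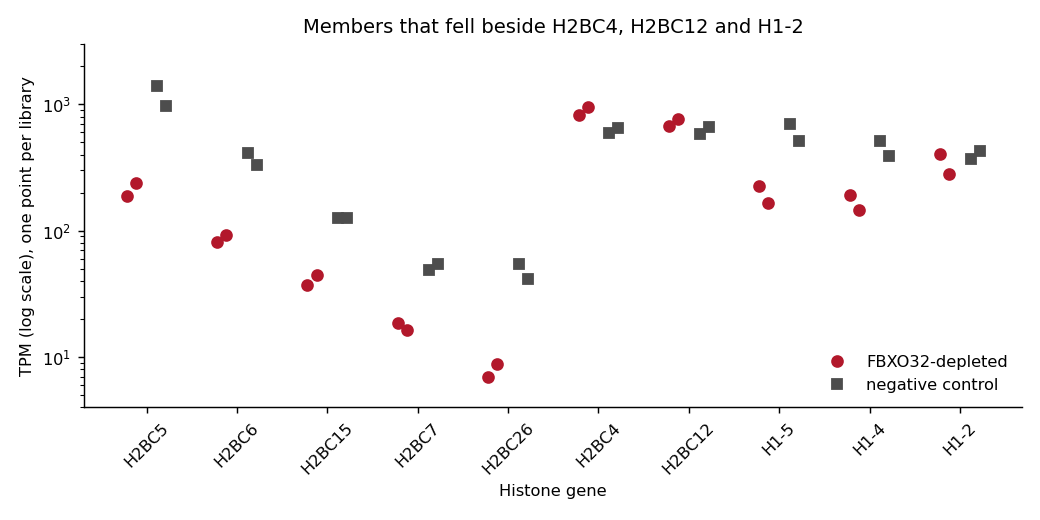
TPM on a log axis, 1 point per library, with FBXO32-depleted libraries as red circles left of negative control libraries as grey squares, for the 5 H2B and 2 H1 genes that fell and for H2BC4, H2BC12 and H1-2. The 7 that fell have both red points below both grey ones, as for H2BC5 with 189 and 239 against 1388 and 966 TPM, while H2BC4 and H2BC12 lie above their controls in TPM, though their fold changes turn below 0 (-0.049 and -0.34) with the trend on coding length removed.

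Near-identical copies limit how far single genes can be read, because footprints that match several copies have to be shared out. As background, H2BC4, H2BC6, H2BC7, H2BC8 and H2BC10 encode the same H2B protein through coding sequences that differ at synonymous positions. H2BC6 was 93.2% identical to H2BC4 over the coding sequence, and H2BC5 was 92.7% identical to H2BC4. The first 90 coding bases of H2BC5 are shown with those of H2BC6, H2BC7 and H2BC4, with capitals where a base differs from H2BC5, because these genes took opposite sides of 0 while sharing long runs of sequence (GENCODE 29, GRCh38).
H2BC5: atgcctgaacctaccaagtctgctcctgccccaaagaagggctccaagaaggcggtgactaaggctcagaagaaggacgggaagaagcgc
H2BC6: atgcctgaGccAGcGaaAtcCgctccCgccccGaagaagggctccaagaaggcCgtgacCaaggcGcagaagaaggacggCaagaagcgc
H2BC7: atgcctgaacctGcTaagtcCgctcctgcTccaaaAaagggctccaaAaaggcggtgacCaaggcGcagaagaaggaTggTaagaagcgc
H2BC4: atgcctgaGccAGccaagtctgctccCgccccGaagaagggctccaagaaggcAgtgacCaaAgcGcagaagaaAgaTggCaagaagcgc
Over the whole coding sequence of 381 bases, H2BC6 and H2BC7 differed from H2BC5 at 29 positions each and H2BC4 at 28. The 5 genes of the shared protein summed to 1160.4 and 1319 TPM in the depleted libraries, against 1551 and 1511 TPM in the controls, or 0.81 times the control mean. The groups did not overlap in this sum, and H2BC4 held the larger part of it in the depleted libraries.

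How much of each coding sequence is its own was counted in 28-nt windows, about the length of a footprint, that occur in the sense strand of no other gene's GENCODE 29 transcripts. The median member had 81.1% such windows, and 9 members had none. Among the genes that fell the share was 98.1% for H1-4, 97.2% for H1-5, 74.6% for H2BC7, 57.3% for H2BC5, 54.2% for H2BC6, 53.0% for H2BC15 and 38.1% for H2BC26. The linker genes could thus be told apart over nearly their whole length, while all 5 H2B genes that fell lay below the members' median. The other tested H2B genes lay below this median too, except H2BC3, H2BC8 and H2BC14. A low share was thus common in the class and not particular to the genes that fell. Each share rests on the longest annotated coding sequence. For H2BC15 that was 501 nt, against 381 nt for H2BC5, so its share is less comparable. H2BC4 had 61.9% and H2BC12 had 11.9% own windows, so the level of H2BC12 rests on the fewest own windows of the H2B genes given here with values. Of the 39 tested members with at least 50% own windows, 6 fell, with a median log2 fold change of -0.24. Of the 20 below 50%, 1 fell, with a median of -0.11. The share over all tested genes was 19.5%, and the split by own windows was not tested.

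Some copies could not be told apart at all. H2AC18 and H2AC19, H3C14 and H3C15, and H4C11 and H4C12 are identical over their coding sequences, and each pair had the same TPM to the last deposited digit in every library. H4C14 and H4C15 are identical as well, yet H4C14 was listed at 1.33 times the level of H4C15 in each of the 4 libraries, with 4 and 3 coding transcripts in GENCODE 29. Their equal fold changes of -0.08 are therefore not independent of each other. H3C4 had no own window either, but it is no such copy, being 88.1% identical to its nearest member. Another member held 11.5% of its windows, and the rest occurred only in transcripts of genes that are no members.

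**Figure D4:**
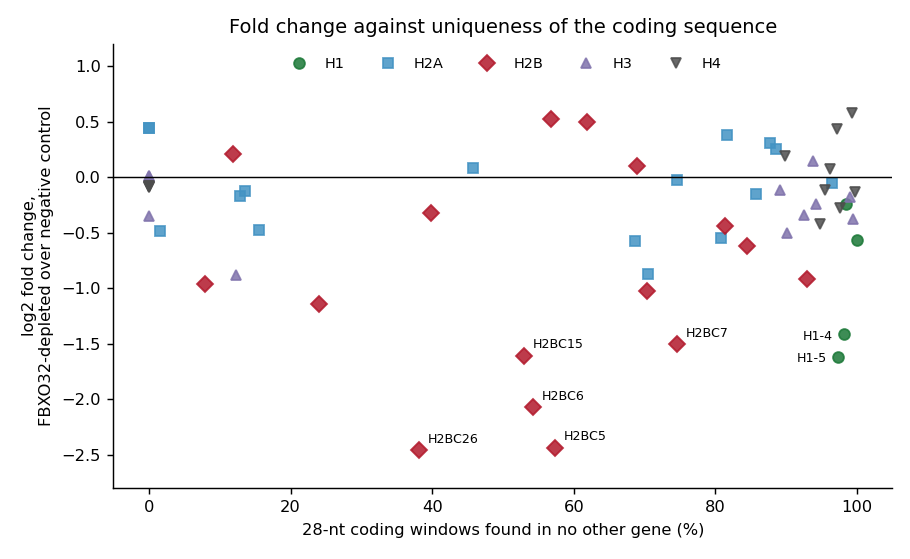
Log2 fold change (vertical axis, FBXO32-depleted over negative control) against the percentage of 28-nt coding windows found in no other gene (horizontal axis) for the 59 tested members, 1 point per gene, shaped and coloured by class. The 7 named points fell; H1-4 and H1-5 sit near 98%, and the H2B genes that fell sit between 38.1% and 74.6%, beside H2B genes with fold changes near or above 0.

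The H2A genes gave 0 calls, with 10 of 16 log2 fold changes below 0 and a median of -0.09. H2A carries the acidic patch to which many chromatin proteins bind. H2AC11 (ENSG00000196787) had 539 and 561 TPM in the depleted libraries, against 519 and 606 TPM in the controls. The identical H2AC18 and H2AC19 had 537 and 574 TPM in the depleted libraries, against 327 and 511 TPM in the controls. The lowest fold change was that of H2AC16, at -0.87, with 78.0 and 73.1 TPM in the depleted libraries against 124 and 157 TPM in the controls (limma adjusted p = 0.0876). Over the class 7 genes were lower and 3 higher in both depleted libraries, and 6 overlapped. The 3 higher genes include both H2AC18 and H2AC19, whose values are not independent of each other.

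The H3 and H4 genes likewise gave 0 calls. H3 and H4 form the tetramer that is laid down on new DNA before the H2A-H2B dimers. H3C2 (ENSG00000286522) had 517 and 462 TPM in the depleted libraries, against 419 and 669 TPM in the controls. H3C10 (ENSG00000278828) had 433 and 455 TPM in the depleted libraries, against 329.6 and 489 TPM in the controls. H3C14, which cannot be told apart from H3C15, had 414 and 405 TPM in the depleted libraries, against 339 and 490.0 TPM in the controls. For each of these H3 genes the depleted values lay within the control values. The lowest H3 fold change, -0.88, belonged to H3C13, with 7.83 and 9.62 TPM in the depleted libraries against 24.6 and 11.5 TPM in the controls. Of 11 tested H3 genes, 7 were lower in both depleted libraries, 0 were higher, and the median log2 fold change was -0.24.

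H4C3 (ENSG00000197061) had the highest fold change of all members, at 0.58 (95% confidence interval -0.13 to 1.30, limma adjusted p = 0.236). Its level was 778 and 893 TPM in the depleted libraries, against 449.6 and 689 TPM in the controls. H4C2 (ENSG00000278705) had 640.4 and 742 TPM in the depleted libraries, against 491 and 739 TPM in the controls, and H4C14 (ENSG00000270882) had 506 and 581 TPM against 471 and 693 TPM in the controls. H4C16, the single member on chromosome 12, was higher in both depleted libraries, with 89.7 and 101.03 TPM against 65.6 and 74.9 TPM in the controls, with a limma adjusted p of 0.45. The H4 fold changes had a median of -0.08 and the narrowest range of the 4 core classes, from -0.42 to 0.58. Over all members 30 of 59 were lower in both depleted libraries and 8 higher without overlap, or 50.8% lower, where 37.6% of all tested genes were lower and 26.8% higher. Each identical copy counts as a member here, and the 8 include both H2AC18 and H2AC19. The lean of the members depended on scaling: 42 of 59 log2 fold changes were below 0, with a median of -0.18, but 29 of 59 under median-ratio scaling, with a median of 0.02. The share lower in both depleted libraries was 75.0% in H1 and in H2B and 8.33% in H4.

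On chromosome 6, 6 of 45 tested members fell, and on chromosome 1, 1 of 13, where 19.5% of all tested genes fell. Most H2A and H2B genes lie head to head, with starts 194 to 248 bp apart in the 12 pairs found here, and share the stretch between them. H2BC7, H2BC15 and H2BC26 fell while 0 of their H2A partners did in the main setting. The widest gap was in the pair H2BC26 and H2AC25, with log2 fold changes of -2.46 and 0.30. H2BC15 and H2AC15 had -1.61 and -0.57, and H2BC7 and H2AC7 had -1.51 and -0.48. With the trend on coding length removed, the partners H2AC7 and H2AC15 fell as well, while H2AC25 did not. The level of H2AC7 rests on few own windows, with a share of 1.64%, against 68.6% for H2AC15 and 87.7% for H2AC25. Over the 11 pairs with both partners tested, the H2B gene had the lower fold change in 6, and the differences within pairs were not tested.

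**Figure D5:**
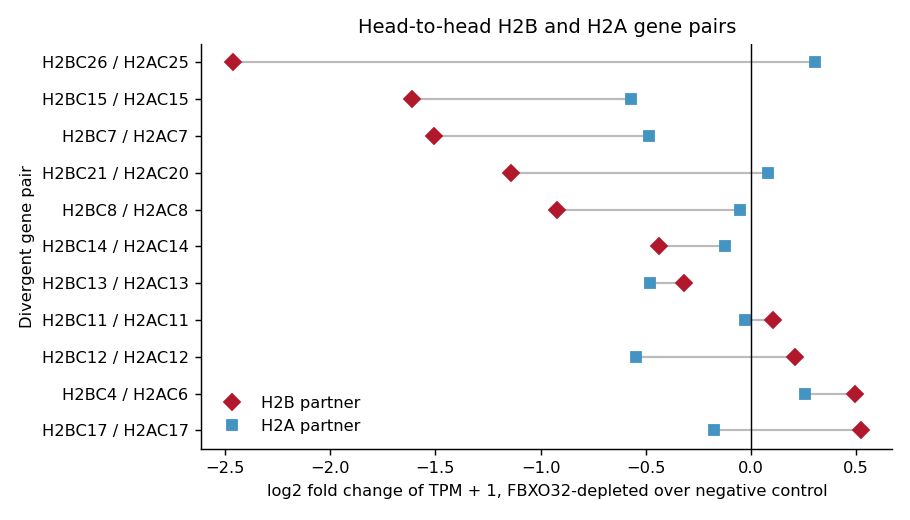
Log2 fold change of TPM + 1 (horizontal axis, FBXO32-depleted over negative control) of the H2B gene (red diamond) and the H2A gene (blue square) in each of 11 head-to-head pairs, ordered by the H2B value. The partners lie furthest apart in H2BC26 and H2AC25 (-2.46 and 0.30), and in the 5 lowest pairs of the plot the H2B value is above the H2A value.

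Promoters of 63 members were found in the RefSeq table (GRCh38.p14), each from 250 bases before to 50 after the start. They were searched on both strands for ATTTGCAT, the octamer bound by POU2F1 and known from H2B promoters, for CCAAT, for TATAAA and for GGTCCG, the core of the site through which HINFP acts on H4 genes. ATTTGCAT was in 77.8% of 18 H2B and 68.8% of 16 H2A promoters, against 1.80% of all 27305 promoters. The windows of head-to-head H2A and H2B genes overlap, so their shares are not independent. The window of H3C4 is the same as that of H2AC7, so the H3 shares include an H2A promoter. CCAAT was in 100% of the H1, H2A, H2B and H3 promoters and in 23.1% of the H4 promoters, against 35.7% of all. GGTCCG was in 92.3% of 13 H4 promoters, against 11.2% of all, and TATAAA in 53.8% to 75.0% of the classes, against 11.95% of all. Motif matches overlapped in 6 member promoters, in some of them only as TATAAA matched on both strands. Of the 12 tested H2B genes with ATTTGCAT 2 fell (H2BC6 and H2BC7), and of the 4 without it 3 fell (H2BC5, H2BC15 and H2BC26) and H2BC13 did not. Over all tested genes 19.5% fell, and this split by the octamer was not tested. The promoters of H2BC5 and H1-5, which fell, and of H2BC4, which did not, are shown 5′ to 3′ with all motif matches in capitals, to set a promoter with the octamer beside ones without it.
H2BC5 (chr6:26157871-26158170, plus strand): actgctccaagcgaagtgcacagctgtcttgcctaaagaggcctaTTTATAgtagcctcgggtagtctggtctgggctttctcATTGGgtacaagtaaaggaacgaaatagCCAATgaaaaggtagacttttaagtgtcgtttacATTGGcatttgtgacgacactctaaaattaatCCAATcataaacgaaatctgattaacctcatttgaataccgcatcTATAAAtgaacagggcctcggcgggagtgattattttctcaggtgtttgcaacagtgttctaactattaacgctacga
H1-5 (chr6:27867539-27867838, minus strand): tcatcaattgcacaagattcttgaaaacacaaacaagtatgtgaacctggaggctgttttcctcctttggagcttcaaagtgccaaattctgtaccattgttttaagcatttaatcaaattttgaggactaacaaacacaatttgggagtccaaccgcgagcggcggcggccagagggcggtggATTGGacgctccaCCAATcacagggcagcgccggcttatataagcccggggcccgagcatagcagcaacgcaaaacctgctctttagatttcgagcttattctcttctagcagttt
H2BC4 (chr6:26123877-26124176, minus strand): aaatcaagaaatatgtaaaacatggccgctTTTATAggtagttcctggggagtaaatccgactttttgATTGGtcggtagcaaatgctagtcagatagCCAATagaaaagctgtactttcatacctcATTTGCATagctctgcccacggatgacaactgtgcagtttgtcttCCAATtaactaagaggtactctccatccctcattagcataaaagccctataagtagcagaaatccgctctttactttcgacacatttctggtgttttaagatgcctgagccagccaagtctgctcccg
H2BC5 held 4 CCAAT and 2 TATAAA matches and no ATTTGCAT, and H2BC4 held 1 ATTTGCAT. A match describes letters only and does not show that a factor binds there.

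Histone variants such as H3-3A, H3-3B and H2AZ1 are made throughout the cell cycle from polyadenylated mRNAs. Of 12 variant genes, 2 fell, 1 rose and 9 did not pass the test, shares near the 19.5% and 6.21% of all tested genes that fell and rose. The median of the 12 log2 fold changes was -0.36. H3-3A, 1 of the 2 genes of histone H3.3, rose, with 519 and 491 TPM in the depleted libraries against 221 and 296 TPM in the controls (0.98 ± 0.37, SE, limma adjusted p = 0.0388). Its sister gene H3-3B had 759.7 and 739.8 TPM in the depleted libraries, against 963 and 837 TPM in the controls, a difference that missed the threshold (limma adjusted p = 0.637). H2AJ, an H2A variant, fell, with 127 and 144 TPM in the depleted libraries against 319 and 223 TPM in the controls (limma adjusted p = 0.0438). H3-5, a close relative of H3-3B, was listed at 0 in both depleted libraries and at 1.69 and 3.67 TPM in the controls. The calls of H3-3A and H2AJ ended whichever library was left out and with the replicate block (limma adjusted p = 0.0559 and 0.0646), and that of H3-5 ended without negative control replicate 2 (0.0519). The call of H3-3A also ended after removal of the trend on coding length (0.42).

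Of 20 genes for histone gene transcription and mRNA 3′ end processing, 6 fell, 0 rose and 14 did not pass the test, with a median of -0.80, where 19.5% of all tested genes fell. The count was 0 without negative control replicate 1 and 3 with the trend on coding length removed. SYMPK, the scaffold of the cleavage complex, had 15.0 and 16.3 TPM in the depleted libraries, against 112 and 56.0 TPM in the controls (-2.27 ± 0.43, SE, limma adjusted p = 2.96e-06). CASP8AP2, or FLASH, which joins the U7 snRNP to that complex, had 0.594 and 0.271 TPM in the depleted libraries, against 5.83 and 3.23 TPM in the controls (limma adjusted p = 0.000413). NCBP1, the large cap-binding subunit, had 10.4 and 3.90 TPM in the depleted libraries, against 29.01 and 21.2 TPM in the controls (limma adjusted p = 0.000957). The other 3 that fell were ZNF473, SRRT and POU2F1, named after their values were seen. Without negative control replicate 1 the calls of SYMPK, CASP8AP2 and NCBP1 ended (limma adjusted p = 0.0862, 0.0926 and 0.179), and that of NCBP1 ended also without depleted replicate 2 (0.105). SLBP, the stem-loop binding protein, had 62.8 and 36.0 TPM in the depleted libraries, against 99.4 and 89.6 TPM in the controls, which missed the threshold (limma adjusted p = 0.0599). NPAT, the coactivator of histone gene transcription, had 3.62 and 3.65 TPM in the depleted libraries, against 3.21 and 2.78 TPM in the controls.

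In histone mRNA decay, 4 of 15 genes fell, 2 rose and 9 did not pass the test, with a median of -0.03, where 19.5% of all tested genes fell and 6.21% rose. Without negative control replicate 1, 0 fell and 0 rose, and 0 rose also without depleted replicate 2 or negative control replicate 2. TUT7, which adds uridines to histone mRNA, had 2.39 and 1.97 TPM in the depleted libraries, against 22.0 and 12.8 TPM in the controls (-2.49 ± 0.47, SE, limma adjusted p = 4.21e-06). UPF1, the helicase that starts this decay, had 2.12 and 1.41 TPM in the depleted libraries, against 12.8 and 9.50 TPM in the controls. EXOSC10, a nuclear exosome nuclease, and SMG1, the kinase of UPF1, fell as well (limma adjusted p = 8.46e-05 and 0.000638), SMG1 being named after its value was seen. DCP2, a decapping enzyme, and LSM2, a subunit of the ring that binds the mRNA end, rose by 1.26 and 1.06 on the log2 scale (limma adjusted p = 0.0217 and 0.0280). Without negative control replicate 1 none of the calls of TUT7, UPF1, EXOSC10, DCP2 and LSM2 held (limma adjusted p = 0.0506, 0.0665, 0.0909, 0.336 and 0.419). That of DCP2 ended whichever library was left out, and that of LSM2 ended also without depleted replicate 2 (0.186) or negative control replicate 2 (0.0600).

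Chaperones and importins carry newly made histones to the nucleus and onto DNA. Of 28 such genes, 23 fell, 0 rose and 5 did not pass the test, with a median log2 fold change of -1.49, against -0.16 over all tested genes, of which 19.5% fell. The count of 23 dropped to 13 without a filter on low values and to 10 with the trend on coding length removed. In these settings 1322 and 1340 of all tested genes fell, against 2268 in the main one. The count also dropped without negative control replicate 1 or depleted replicate 2, which leaves 1 library in a group. So did the number over all tested genes. HJURP, the chaperone of the centromeric H3 variant CENPA, had 25.2 and 29.1 TPM in the depleted libraries, against 390.4 and 217 TPM in the controls (-3.38 ± 0.40, SE, limma adjusted p = 9.23e-15). SSRP1, a subunit of the FACT complex that handles H2A-H2B dimers, had 46.5 and 24.6 TPM in the depleted libraries, against 215 and 155 TPM in the controls (-2.40 ± 0.40, SE, limma adjusted p = 1.19e-07). CHAF1A, the large subunit of CAF-1, which deposits H3-H4 behind the replication fork, had 5.78 and 3.06 TPM in the depleted libraries, against 25.65 and 43.4 TPM in the controls (-2.71 ± 0.46, SE, limma adjusted p = 1.42e-07). The 5 that did not pass were ASF1A, ASF1B, HIRA, MMS22L and RBBP7, named after their values were seen. Whether this list differed from the histone genes themselves was not tested.

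The members' count depended on how coding length was treated. With the trend of fold change on coding length removed from all genes, 21 of 59 members fell, or 35.6%, against 11.6% of all tested genes, and 0 members rose, where 6.29% of all tested genes did. Their median log2 fold change was then -0.75, against 0.02 over all genes, and all 59 values were below 0. The 14 added calls were 6 further H2B, 5 H2A, 2 H3 and 1 H4 genes, and all 7 of the original calls held. The cause of the length trend was not tested.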

How the data were processed

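Ribosome footprints of 4 PANC-1 libraries were used, 2 FBXO32-depleted and 2 negative control; columns were assigned by name, reading KO as depleted and NS as control. The labels' protocols describe cycloheximide treatment, digestion of lysates and recovery of fragments over 17 nt. The deposited values are TPM per gene, made by the authors; the build GRCh38 and the tools RSEM, STAR, Bowtie2 2.2.8, DESeq2 and fastp stand in the submitters' processing notes, with no role or order, and the annotation release is not given in the sources used here. TPM keeps no depth, so precision rests on replicate spread, and nothing says that replicates were separate cultures.

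From these values log2(TPM + 1) was fitted with limma 3.58.1 in R 4.3.3 (trend and robust moderation) for the 11623 genes at 1 TPM or more in 2 or more libraries, with p adjusted by Benjamini-Hochberg over all of them; the threshold was 0.05. On this scale the fold changes of low genes are understated. The prior degrees of freedom were infinite, so each gene's own spread had little part. The pipeline was tested on simulated data. Named genes were those members called, the 3 most abundant per class and the 3 smallest p per companion list and direction, together with FBXO32; H1-1, H1-3, H2AC16, H2BC8, H2BC17, H2BC21, H3C13, H4C16, the partners in gene pairs, H3-3B, SLBP and NPAT were named after their values were seen. Members and lists were chosen with earlier results of these data known. Sequences come from GENCODE 29 on GRCh38 and the RefSeq promoter table. Alternatives were another pseudocount, other filters, median-ratio scaling, limma without trend or robust moderation, a replicate block, removal of the coding-length trend, and leaving out each library.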

Additional observations from a re-analysis of the deposited data

How the results depend on the processing

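Over all tested genes, 1322 fell and 207 rose without a filter, and 1340 fell with the coding-length trend removed. Leaving out 1 library each gave 347 to 2389 that fell and 37 to 646 that rose. Median-ratio scaling moved the median of all genes to 0.02 and the split to 1904 fell and 1251 rose, against 2268 and 722. Replicates share only a number (correlation of deviations -0.0488): the replicate block gave 1930 fell and 489 rose, with the same 7 histone genes, and the crossed pairing, added after seeing the data, gave 2181 and 638. Of the histone genes 21 fell with the length trend removed, 3 to 7 on leaving out 1 library, 9 at 5 TPM and 8 without the trend of limma; the cause was not tested. None rose under any alternative run. Without negative control replicate 1, 3 fell.

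The log2 ratio of class sums under median-ratio scaling was -0.84 for H1, 0.14 for H2A, -0.29 for H2B, 0.03 for H3 and 0.25 for H4. On leaving out 1 library it ranged from -1.28 to -0.81 for H1, -0.21 to 0.07 for H2A, -0.59 to -0.43 for H2B, -0.40 to 0.08 for H3 and -0.20 to 0.30 for H4. Members with a log2 fold change below 0 numbered 42 of 59, 29 under median-ratio scaling and 59 with the length trend removed. Among the most abundant members of each class, signs turned under median-ratio scaling for H2AC11 (0.18), H3C2 (0.088) and H4C14 (0.13). With the length trend removed they turned, among the same members, for H2AC18 and H2AC19 (-0.091), H2BC4 (-0.049), H2BC12 (-0.34), H3C10 (-0.36), H3C14 (-0.50), H4C2 (-0.45) and H4C3 (-0.058). On leaving out 1 library the sign turned for H1-2 (-0.50 to 0.025), H2AC11 (-0.14 to 0.084), H3C2 (-0.45 to 0.22), H3C10 (-0.14 to 0.43), H3C14 (-0.26 to 0.27), H4C2 (-0.10 to 0.49) and H4C14 (-0.35 to 0.20). None of these genes was called in the main setting. TPM keeps no depth, so what depth limits is unknown.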
